A study of Mus musculus with 12 samples.

Results

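Fatty acid desaturases and elongases are the enzymes that insert double bonds into fatty acids and lengthen their chains. The 9 genes described here, Fads1, Fads2, Fads3, Scd1, Scd2, Elovl1, Elovl5, Elovl6 and Elovl7, were taken by gene symbol from tables of 14264 genes, and all 9 had values. They were selected on these data, since Fads1 stood out by how low it was in knockdown cells after LPS. Values after LPS are therefore given as a description, without a test, and the unstimulated comparison, which is between other libraries, is the one tested. The sources used here do not state whether its error estimate also drew on the LPS libraries. The mean normalized count was identical in both comparisons for all 14264 genes. Both may therefore share their normalization and error estimate, and the unstimulated test cannot be taken as independent of the LPS libraries.

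The cells were mouse bone marrow-derived macrophages with a control short hairpin RNA (shCTRL, wild type per the labels) or a hairpin that depletes MOF (shMOF). MOF is a lysine acetyltransferase that modifies histone H4 and other proteins, and its gene is Kat8. Both kinds of cells were either left unstimulated or given bacterial lipopolysaccharide (LPS) at 100 ng/ml for 3 h, which makes 4 groups of 3 libraries. The series title concerns acetylation of the peroxidase PRDX1 by MOF and LPS-induced activation. Mouse strain, age, the promoter that drives the hairpins and the number of hairpins are not given in the labels, and effects of a hairpin other than loss of MOF cannot be told apart from that loss. Nothing in the labels says whether libraries of a group came from different mice or cultures, so p-values measure the spread between these libraries, which may be technical. In bulk RNA, fewer cells of a type and less RNA per cell cannot be told apart.

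In polyunsaturated fatty acid synthesis, FADS2 puts the first new double bond into the essential fatty acids linoleic and alpha-linolenic acid, ELOVL5 lengthens the product, and FADS1 adds a further double bond to give arachidonic or eicosapentaenoic acid. In saturated fatty acid metabolism, ELOVL6 lengthens palmitate to stearate, and the stearoyl-CoA desaturases SCD1 and SCD2 turn these into palmitoleate and oleate. ELOVL1 and ELOVL7 lengthen longer acyl chains, and FADS3 acts on sphingoid bases. Macrophages hold arachidonic acid in membrane phospholipids and release it for prostaglandin and leukotriene synthesis, and several of these genes are known targets of the SREBP and LXR transcription factors.

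Each value below compares shMOF with shCTRL within 1 LPS state and comes from 1 fold change and its standard error (SE) per gene, since the tables hold no value for a single library. Percentages give the shMOF level relative to shCTRL, with a 95% interval from the SE, and "fell" or "rose" is used at an adjusted p of at most 0.05. Kat8 itself was at 0.210 of the control level (95% interval 0.182 to 0.242) in unstimulated cells, with an adjusted p of 2.08e-101 in the authors' deposited table, and at 0.201 of it (0.168 to 0.240) after LPS. All 8 macrophage markers (among them Adgre1 and Csf1r) had mean normalized counts of at least 1233 and rose in unstimulated knockdown cells, and 6 of 8 rose after LPS. Markers of T cells, B cells and adipocytes were not among the genes of the tables, and of 6 neutrophil markers the tables held S100a8 and Camp, with neither called. Of 4 dendritic cell markers the tables held Zbtb46, which was not called without LPS and rose by 0.70 (adjusted p = 0.00167) after it in the authors' deposited table. The progenitor markers Kit and Cd34 had mean normalized counts of 14.9 and 40.5 and fell in unstimulated knockdown cells, with log2 fold changes of -1.81 and -0.93 in the authors' deposited table. After LPS, Cd34 fell by 0.97, while Kit, at -0.83 with an adjusted p of 0.174, was not called in that table. The fibroblast collagen genes Col1a1 and Col1a2 rose in both states, by 0.35 to 0.52 on the log2 scale in the authors' deposited table. The part of these cell-type markers in the results on desaturases and elongases was not tested.

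The members differed widely in level. Per kilobase of annotated exons, the mean normalized count was highest for Elovl1 at 1532, followed by Elovl5 at 333, Fads1 at 242 and Scd2 at 92.7. Fads3 stood at 47.5, Fads2 at 30.5, Elovl6 at 23.4 and Elovl7 at 10.8, and Scd1 was lowest at 4.14. This mean is the same number in both tables, and its spread over libraries is not known from them. For Scd1, whose mean normalized count was 20.3, the SE of the log2 fold change was 0.37 in both states, against 0.04 for Elovl1 with a mean normalized count of 4177. The 95% interval of Scd1 ran from -0.43 to 1.01 on the log2 scale without LPS, and changes within it were not detectable at this depth.

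In unstimulated macrophages the knockdown lowered 5 of the 9 genes: Fads1, Fads2, Elovl6, Elovl7 and Elovl1. By the authors' DESeq2 test, 0 rose at an adjusted p of 0.05, and 1 had an unadjusted p below 0.05 with a higher level (Elovl5). Over all genes of the same comparison, 39.1% were called in either direction, 17.8% lower and 21.3% higher. With fold changes centred on their median, more genes were called lower (2875) than higher (2577). The median log2 fold change of the members was -0.18, beside 0.03 over all genes.

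Among the desaturases of the polyunsaturated route, Fads1 (ENSMUSG00000010663.4) fell to 45.5% of the control level (95% interval 41.4% to 50.02%) in unstimulated cells, with an adjusted p of 7.08e-58 in the authors' deposited table. Its mean normalized count was 1167, and it ranked 236th from the lowest among the 10809 genes whose mean normalized count was 50 or more. Fads2 (ENSMUSG00000024665.7), the enzyme of the first step, fell to 48.5% (37.9% to 62.2%), with an adjusted p of 1.07e-07 in the authors' deposited table and a mean normalized count of 100.5. Elovl5, the elongase between these steps, was at 109% (101% to 119%). Its adjusted p of 0.0785 in the authors' deposited table missed the threshold, although its own unadjusted interval lay just above 100%. Fads3 (ENSMUSG00000024664.4), the third gene of the cluster, was at 105% (90.0% to 123%), with an adjusted p of 0.670 in the authors' deposited table. The log2 fold changes of Fads1 and Fads2 in unstimulated cells differed by 0.09 (SE 0.20, 95% interval -0.29 to 0.48).

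The stearoyl-CoA desaturases did not pass the test in unstimulated cells. Scd2 was at 94.3% (84.0% to 106%), with an adjusted p of 0.469 in the authors' deposited table, so its interval leaves room for a fall of at most about 0.25 on the log2 scale. Scd1, which is best known from liver and adipose tissue, was at 122% (74.2% to 201%), with an adjusted p of 0.581 in the authors' deposited table. That interval spans lower and higher levels and does not show that Scd1 stayed at the control level.

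The elongases that fell in unstimulated cells were 3, Elovl6, Elovl7 and Elovl1. Elovl6 (ENSMUSG00000041220.10), the palmitate elongase, was at 49.3% (40.5% to 59.95%), with an adjusted p of 2.21e-11 in the authors' deposited table and a mean normalized count of 150.2. Elovl7 was at 68.6% (52.1% to 90.4%), with an adjusted p of 0.0220 in the authors' deposited table, and its mean normalized count was 43.4. Elovl1, the most abundant member, fell slightly, to 88.4% (83.5% to 93.6%), with an adjusted p of 1.48e-04 in the authors' deposited table. In the order of unstimulated fold changes, Fads1, Fads2 and Elovl6 lay lowest, and none of the 8 pairs of neighbours in that order had a difference whose 95% interval excluded 0. Neighbours in a sorted order are close by construction, so this says nothing of members further apart. The intervals of Elovl6 and Elovl1 given above, for example, do not overlap. Against a null of an absolute log2 fold change up to 0.25, Elovl7 and Elovl1 were no longer called, and under an empirical null that centres and scales the test statistic over all genes, Fads1 was the 1 member still called.

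**Figure D1:**
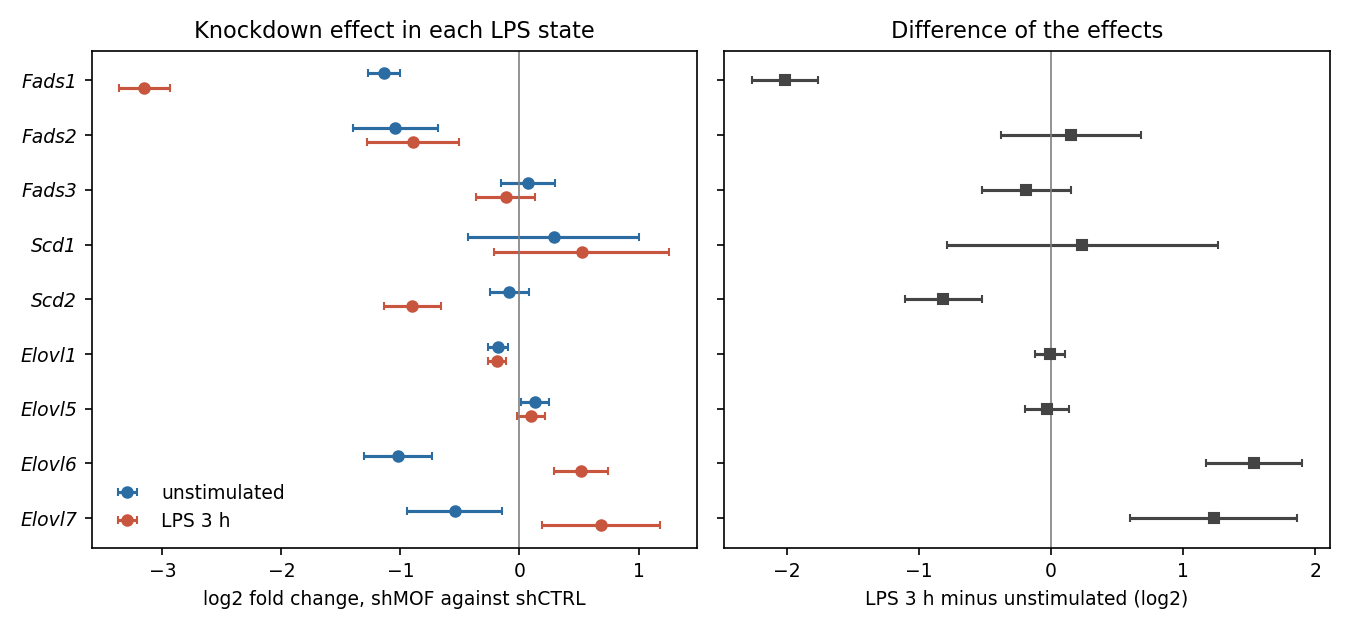
Knockdown effect on each desaturase and elongase. The left panel plots the log2 fold change of shMOF against shCTRL for unstimulated cells (blue) and LPS 3 h (red), and the right panel the difference of the 2 effects (LPS 3 h minus unstimulated). Points are estimates from 3 libraries a group and bars are 95% intervals. Fads1 lies at -1.14 and -3.15, Scd2 at -0.08 and -0.90, and Elovl6 moves from -1.02 to 0.52.

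The promoters of the members with the largest unstimulated falls that the RefSeq table (GRCm38.p6) holds are those of Fads2, Elovl6 and Elovl7. They are shown because these 3 genes were low together in unstimulated cells. Each sequence runs 5′ to 3′ on the gene's strand, from 250 bases before to 50 after the annotated start, in lower case, with capitals for matches to the GC box GGGCGG on either strand. The windows are chr19:10101454-10101753 (minus strand), chr3:129532136-129532435 (plus strand) and chr13:108214154-108214453 (plus strand).
Fads2: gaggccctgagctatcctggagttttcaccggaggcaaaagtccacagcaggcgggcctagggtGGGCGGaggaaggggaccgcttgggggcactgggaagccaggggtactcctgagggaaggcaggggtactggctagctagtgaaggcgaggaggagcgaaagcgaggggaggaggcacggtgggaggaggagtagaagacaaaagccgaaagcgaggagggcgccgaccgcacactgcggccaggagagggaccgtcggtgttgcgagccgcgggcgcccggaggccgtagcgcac
Elovl6: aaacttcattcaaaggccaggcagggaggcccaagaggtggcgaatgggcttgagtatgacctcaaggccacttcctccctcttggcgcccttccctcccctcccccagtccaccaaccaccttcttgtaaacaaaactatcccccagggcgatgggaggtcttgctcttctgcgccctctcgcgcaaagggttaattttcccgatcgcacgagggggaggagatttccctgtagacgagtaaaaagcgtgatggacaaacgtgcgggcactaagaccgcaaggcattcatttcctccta
Elovl7: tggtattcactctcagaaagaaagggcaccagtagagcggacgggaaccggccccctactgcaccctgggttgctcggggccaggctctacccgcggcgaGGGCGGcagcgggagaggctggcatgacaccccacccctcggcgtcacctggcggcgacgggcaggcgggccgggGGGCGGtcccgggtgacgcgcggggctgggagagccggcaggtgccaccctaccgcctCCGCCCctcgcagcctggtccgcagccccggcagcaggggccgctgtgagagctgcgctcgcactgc
Searched on both strands, the Fads2 window holds 1 GC box and the Elovl7 window 3, and the Elovl6 window holds none. Over 7 promoter windows of 6 members (Elovl1 has 2), 5 hold a GC box, beside 35.7% of the 32851 mouse promoters of that table. The CCAAT box, with the letters CCAAT, was in 3 of 7 windows, beside 37.4% of all promoters. In Elovl1 a CCAAT match overlaps a GC box match by 2 bases. The E-box CACGTG, with 1 of 7 windows (Elovl5), was in 7.15% of all promoters. A sterol regulatory element spelled TCACNCCAC was in 0 of 7 windows and in 1.24% of all promoters. The other 3 members, Fads1, Scd1 and Scd2, have no promoter in the RefSeq set and were not searched for any of these motifs. GC content was 67.0% for Fads2, 55.7% for Elovl6 and 74.0% for Elovl7, beside a median of 52.7% over all promoters. These are letter matches only and say nothing of binding.

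After LPS for 3 h, 4 of the 9 members were called lower (Fads1, Scd2, Fads2 and Elovl1) and 2 higher (Elovl6 and Elovl7) in the authors' deposited table. In that comparison 48.0% of the genes with an adjusted p were called, 20.0% lower and 28.1% higher. The choice of the members used this comparison, so nothing is read from these counts. The median log2 fold change was -0.12 for the members and 0.03 over all genes.

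Fads1 was at 11.3% of the control level (95% interval 9.72% to 13.03%) after LPS, the lowest of the 10809 genes that averaged 50 or more normalized counts, which is what it was chosen for. Fads2 was at 53.9% (41.2% to 70.5%), close to its unstimulated value, and Fads3 at 92.3% (77.7% to 109.7%). Elovl5 was at 107% (98.4% to 116%). The low level after LPS thus covered Fads1 and Fads2 among the polyunsaturated enzymes, with Fads1 far below Fads2, while the intervals of Elovl5 and Fads3 included the control level.

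Scd2 was at 53.6% (45.3% to 63.3%) after LPS, whereas its unstimulated interval included the control level. Scd1 was at 144% (86.5% to 239%), with an interval that again included the control level. Elovl6 was at 143% (122% to 168%) and Elovl7 at 161% (114% to 227%), both above the control level after LPS and below it without LPS. Elovl1 was at 87.7% (83.2% to 92.5%), as in unstimulated cells.

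In the order of fold changes after LPS, Fads1 came lowest, a place that the choice of genes fixed in advance. The next gene, Scd2, lay 2.25 higher on the log2 scale. This order is a description and not a test. Scd2 and Fads2 were neighbours whose difference, 0.01 (SE 0.23), had an interval that included 0. A gap of 0.70 (SE 0.20) separated Fads2 from Elovl1, and another gap, of 0.42 (SE 0.13), separated Elovl5 from Elovl6. The other neighbours in that order had differences whose intervals included 0, which again says nothing of members further apart.

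Set side by side, the knockdown effect of LPS-treated cells minus that of unstimulated cells was -2.02 (SE 0.13, 95% interval -2.27 to -1.76) for Fads1 on the log2 scale. It was -0.82 (SE 0.15) for Scd2, with an interval from -1.11 to -0.52. Elovl6 had 1.54 (SE 0.19, 1.18 to 1.90) and Elovl7 1.23 (SE 0.32, 0.60 to 1.87), in the opposite direction. For Fads2 the difference was 0.15 (SE 0.27, -0.38 to 0.68), for Fads3 -0.19 (SE 0.17) and for Scd1 0.24 (SE 0.52), with intervals that included 0. Elovl1 and Elovl5 had the narrowest intervals, from -0.12 to 0.10 and from -0.20 to 0.14. These differences treat the errors of both comparisons as uncorrelated, and no p is given because the LPS values took part in the choice of genes.

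**Figure D2:**
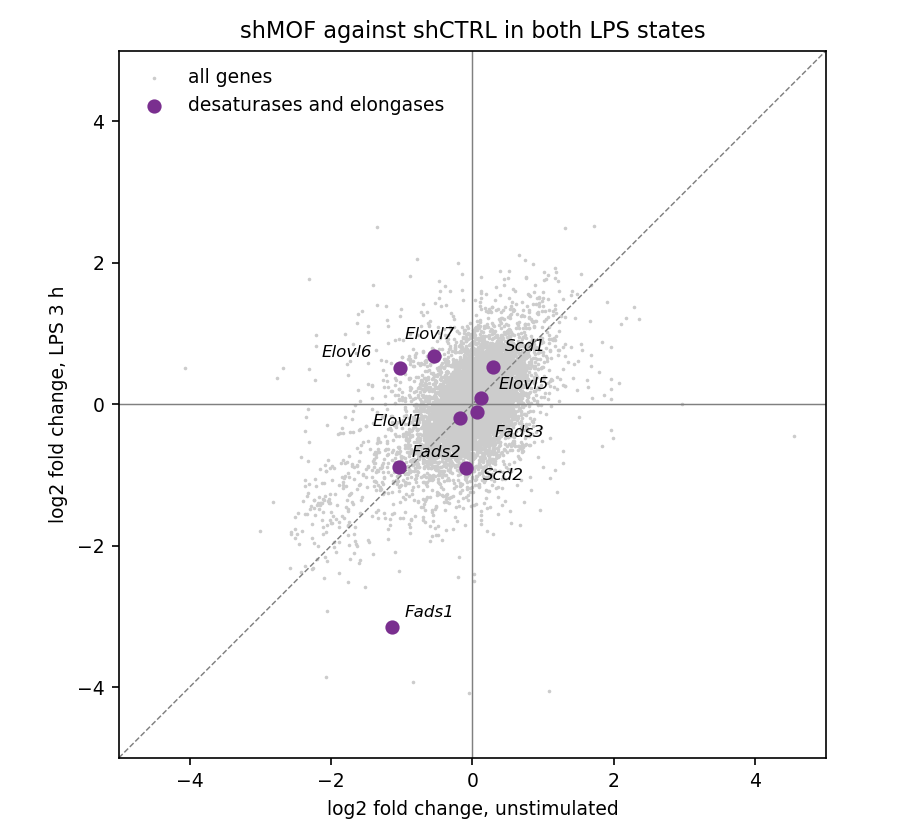
Log2 fold change of shMOF against shCTRL in unstimulated cells (x axis) and after LPS 3 h (y axis) for genes whose mean normalized count was 10 or more (grey) and the 9 members (purple), with the line of equal effects dashed. Fads1 lies far below the line at -1.14 and -3.15, and Elovl6 and Elovl7 lie in the quadrant that is lower without LPS and higher after it.

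Fads1, Fads2 and Fads3 lie side by side on chromosome 19 of GRCm38 (mm10). Fads3 runs from 10041569 to 10060110 on the plus strand, Fads2 from 10062765 to 10101746 on the minus strand and Fads1 from 10182888 to 10196877 on the plus strand. Within 200 kb of a Fads gene start, 12 annotated genes had values, the 3 Fads genes included. The genes around the cluster moved in different ways. Fen1, a flap endonuclease of DNA replication that starts 21.3 kb from the Fads1 start, fell in both states, by 0.62 (adjusted p = 1.20e-13) and 0.43 (9.92e-07) on the log2 scale in the authors' deposited table. Tmem258, which starts 21.1 kb from the Fads1 start, had 0.14 (adjusted p = 0.104) and rose by 0.18 (0.0171) after LPS in the authors' deposited table, and its start overlaps Fen1 on the opposite strand. Rab3il1, on the far side of Fads3, rose by 0.45 (adjusted p = 1.64e-09) in unstimulated cells and fell by 0.36 (4.68e-06) after LPS in that table. Incenp, a chromosomal passenger protein gene further off, fell by 0.84 (adjusted p = 1.76e-45) and by 1.16 (3.26e-61) in the authors' deposited table. Fth1, the ferritin heavy chain gene, had -0.07 (adjusted p = 0.354) and -0.11 (0.0705) there. Dagla had 0.11 (adjusted p = 0.318) without LPS and fell by 0.50 (3.00e-04) after it in the authors' deposited table. Myrf had -0.89 (SE 0.39, adjusted p = 0.0545) without LPS and rose by 0.58 (5.38e-07) after it in that table.

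**Figure D3:**
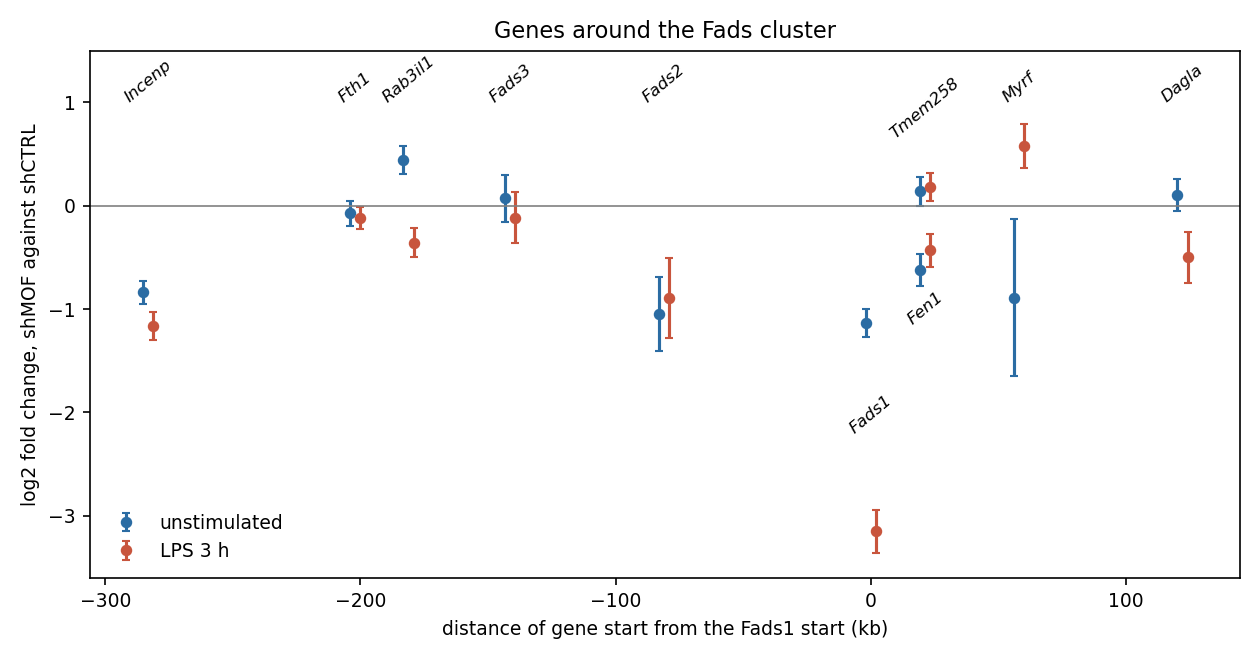
Log2 fold change of shMOF against shCTRL for genes around the Fads cluster, plotted against the distance of each gene's start from the Fads1 start in kb. Points are estimates for unstimulated cells (blue) and LPS 3 h (red), set slightly apart sideways, bars are 95% intervals, and Best1 and Gm10143 (mean normalized counts of 7.54 and 6.21) are not drawn. Fads1 and Fads2 are low in both states, and Fads3 lies near 0.

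Scd1 and Scd2 also lie on chromosome 19, Scd2 from 44293674 to 44306864 on the plus strand and Scd1 from 44394455 to 44407879 on the minus strand. Of the 50-base windows in Scd1 transcripts 4.56%, and of those in Scd2 3.97%, also occur in transcripts of other genes. For both, these other genes include each other, Scd3 and Scd4, and the share between Scd1 and Scd2 alone was not counted. For Elovl6 the share was 3.98%, for Fads2 and Fads3 it was 0.152% and 0.127%, and for Fads1, Elovl1, Elovl5 and Elovl7 it was 0%. Elovl1 (chromosome 4, 118428093 to 118432953, plus strand) overlaps Cdc20 on the opposite strand by 53 exonic bases, or 1.94% of its exon length. Cdc20, an activator of the anaphase-promoting complex, fell by 2.36 (adjusted p = 1.12e-86) and 1.15 (2.53e-15) on the log2 scale in the authors' deposited table. Whether reads of that overlap entered the Elovl1 counts is unknown, as no source used here says if counting used strand. The other elongases are also plus-strand genes: Elovl6 on chromosome 3 (129532355 to 129638495), Elovl5 on chromosome 9 (77917364 to 77984519) and Elovl7 on chromosome 13 (108214404 to 108285683). Elovl6 shares 34 exonic bases with Gm35986, a gene on the other strand that is not in the tables. The 5 genes that fell in unstimulated cells thus lie on 4 chromosomes.

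The genes with fold changes most like those of Fads1 over the 2 comparisons were Gcsh, Cbx6, Ticrr, Cdc6 and Aldh6a1, by Euclidean distance on the log2 scale among genes whose mean normalized count was 50 or more. Gcsh, a subunit of the glycine cleavage system, was nearest at a distance of 0.689, with -1.52 and -2.58 in the authors' deposited table. Cbx6, a Polycomb chromobox gene, lay at 0.796, and the DNA replication genes Ticrr and Cdc6 at 0.897 and 1.06. Aldh6a1, an enzyme of valine breakdown, lay at 1.06 as well. When each fold change was first divided by its SE, 1 of these 5 (Gcsh) stayed among the nearest 5. This likeness rests on 2 values per gene and says nothing of shared control.

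Around the desaturases and elongases, 105 of 123 listed fatty acid pathway genes had values, in 11 lists. In unstimulated cells 41 rose and 17 fell, with a median log2 fold change of 0.12, and after LPS 40 rose and 20 fell, with a median of 0.10. Over all genes, 21.3% rose and 17.8% fell without LPS, and of those with an adjusted p 28.1% rose and 20.0% fell after it. The medians over all genes were 0.03 in both states. No list was tested as a set. The effect of the knockdown differed between states for 39 of 101 tested, 17 with a higher value after LPS and 22 with a lower one, while 30.6% of all genes tested were called for a difference.

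Of 8 other desaturase and elongase genes listed, the tables held Fads6, Degs1 and Degs2. Fads6 rose by 0.59 (adjusted p = 1.84e-05) without LPS and had -0.10 (0.746) after it in the authors' deposited table. Degs1, a dihydroceramide desaturase, fell by 0.11 (adjusted p = 0.00453) and rose by 0.10 (0.00478) in that table, opposite in sign as for Elovl6 but far smaller. Degs2 rose by 1.73 without LPS in the authors' deposited table (adjusted p = 0.0207), at a mean normalized count of 5.62.

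Next came the enzymes that work with the members. For their counts, the shares over all genes are again 21.3% higher and 17.8% lower without LPS, and 28.1% and 20.0% after it. Of the 6 measured genes of the other steps of the elongation cycle, 1 rose without LPS and 2 after it. These were Hacd4, a dehydratase family member, at 0.76 and 0.81 in the authors' deposited table, and Hacd1, at 0.40 after LPS (adjusted p = 0.0234). Among 5 cytochrome b5 and reductase genes, 1 rose and 2 fell without LPS, and 2 rose and 2 fell after it. Some proteins of these families carry electrons to desaturases. Cyb5r3, the most abundant of them, rose by 0.23 (adjusted p = 5.44e-07) and 0.16 (1.51e-04) in the authors' deposited table. Cyb5r1 fell by 0.26 (adjusted p = 6.42e-08) and 0.70 (4.30e-43) in that table. The difference of Cyb5r1 between states was -0.44 (SE 0.07, adjusted p = 9.58e-10), in the same direction as for Fads1 and Scd2. Cyb5a, a cytochrome b5 gene, had 0.14 (adjusted p = 0.0997) and rose by 0.34 (1.46e-06) after LPS in that table. Of 7 acyl-CoA synthetase genes, 1 rose and 2 fell without LPS, and 2 rose and 2 fell after it. Acsl1 and Acsl5 fell in both states, by 0.52 and 0.63 without LPS and by 0.26 and 0.46 after it in the authors' deposited table. Acsl3 rose by 0.53 (adjusted p = 5.36e-08) without LPS, and Acsl4 by 0.26 (2.95e-12) and Slc27a1 by 0.13 (0.00501) after it, in that table.

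Of 8 measured genes that supply substrate and reducing power, 3 rose and 1 fell without LPS, and 1 rose and 1 fell after it. Over all genes, 21.3% rose and 17.8% fell without LPS, and 28.1% and 20.0% after it. Fasn, which makes palmitate, and Acaca, which makes malonyl-CoA, were not called, with -0.14 and -0.10 without LPS and -0.01 and -0.16 after it in the authors' deposited table. Me1, a source of NADPH, fell by 0.66 and 0.58, and Acly, a source of acetyl-CoA, rose by 0.16 and 0.15 in that table. Without LPS, Acss2 rose by 0.97 (adjusted p = 2.10e-05) and Mlycd by 0.46 (1.24e-08) there. Neither was called after LPS, at 0.10 (adjusted p = 0.745) and 0.05 (0.695). Of 16 listed regulators of fatty acid synthesis, 14 had values. Of these 14, 8 rose in unstimulated cells, beside 21.3% of all genes, and the other 6 were not called. Srebf1 rose by 0.28 and 0.25, Srebf2 by 0.57 and 0.59 and Insig1 by 0.72 and 1.08 in the authors' deposited table. After LPS 8 of 14 rose and 5 fell, beside 28.1% and 20.0% of all genes with an adjusted p. Nr1h3, which encodes the LXR alpha receptor, fell by 0.36 and its partner Rxra by 0.38 in the authors' deposited table. Of 8 LXR and LXR target genes, 5 rose without LPS, and 4 rose and 2 fell after it, with Apoe at 0.87 and 0.91 in that table.

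Downstream of the members, 6 of 19 genes of polyunsaturated fatty acid release and eicosanoid synthesis rose and 4 fell without LPS, and 8 rose and 3 fell after LPS. The shares over all genes, for this and the lists below, were 21.3% and 17.8% without LPS and 28.1% and 20.0% after it. Ptges, an inducible prostaglandin E synthase, had -0.12 (adjusted p = 0.713) without LPS and fell by 0.95 (4.50e-86) after it in the authors' deposited table. Ptgs2, the gene of an inducible cyclooxygenase, fell by 1.27 (SE 0.30) without LPS and rose by 0.49 (SE 0.09) after it there. Of 18 genes of this list tested for a difference between states, 6 had a higher value after LPS and 3 a lower one. Alox5ap, needed for leukotriene synthesis, rose by 0.32 and 0.60, and Hpgds, a prostaglandin D synthase, by 0.34 and 0.57 in that table. Of 13 phospholipid acyl-chain remodelling genes 5 rose and 4 fell without LPS, with the lowest value for Mboat1, an acyltransferase, at -1.60 (adjusted p = 5.22e-16) in the authors' deposited table. Among 12 peroxisomal genes, Abcd2, a transporter of very long-chain fatty acyl-CoA, rose by 1.68 and 1.69 in that table, and among 12 lipid storage genes 4 rose and 1 fell without LPS.

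**Figure D4:**
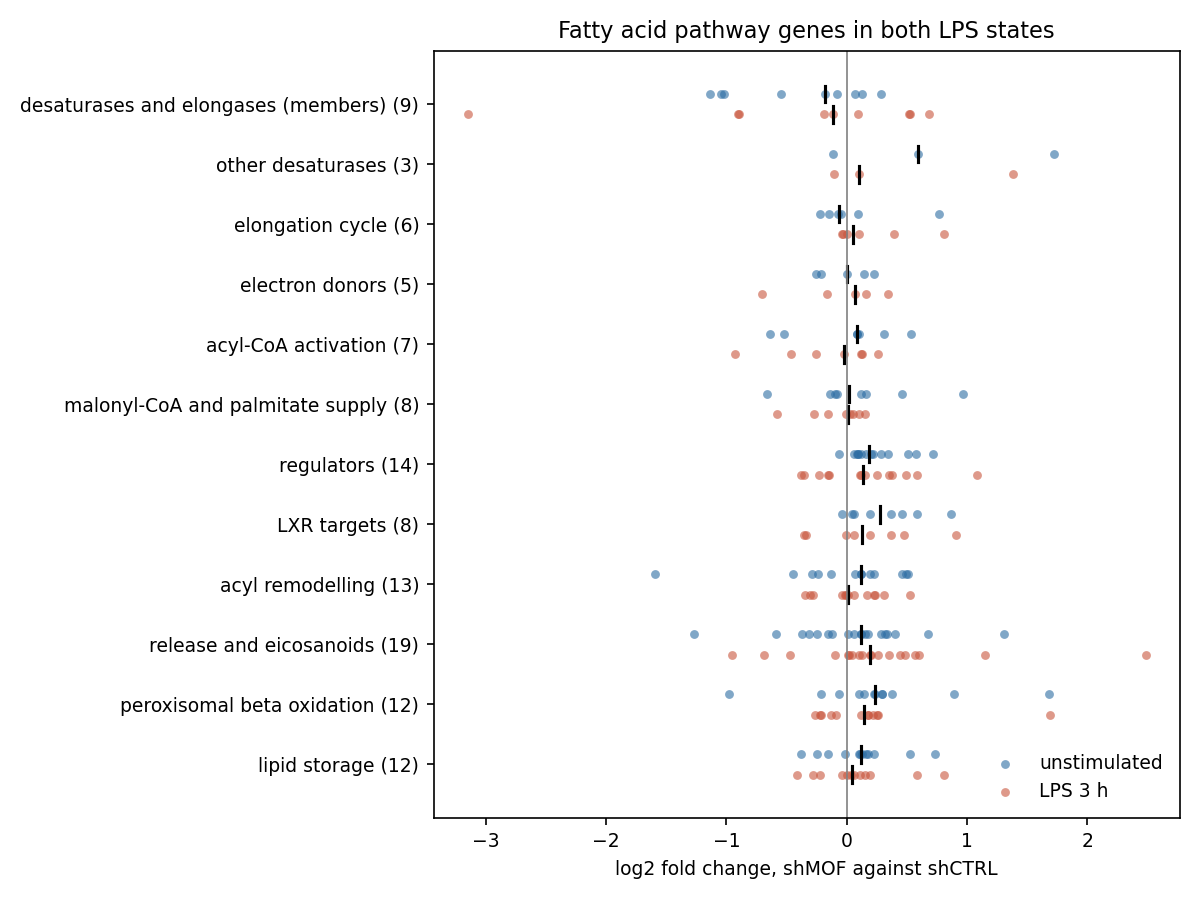
Log2 fold change of shMOF against shCTRL for the members and for 11 lists of fatty acid pathway genes (number of measured genes in brackets) in unstimulated cells (blue) and after LPS 3 h (red). Each dot is a gene and each black bar the median of its row. The median of the members is -0.18 without LPS and -0.12 after it, and that of all listed pathway genes is 0.12 and 0.10.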

How the data were processed

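RNA of 12 libraries in 4 groups was sequenced with a stranded kit that selects mRNA, as paired reads of 100 bp, per the labels. The submitters' processing notes name DESeq2 and the mm10 build; which aligner, counter and annotation were used, and whether counting used strand, is not stated there or in the labels. The authors deposited, per the file headers, a mean normalized count (a signal), a log2 fold change with its SE, a Wald score, a p-value and an adjusted p for each gene and comparison, with no value per library, so depth per library is unknown and the precision is known from the SE alone. The deposited score equalled fold change over SE to within 1.53e-13, and the adjusted p equalled a Benjamini-Hochberg adjustment to within 1.39e-15, with none for 277 genes after LPS.

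The members and lists were chosen with earlier results of these data known. The authors' calls at an adjusted p of 0.05 were used as deposited; a count test was not run because no counts per library were used here. Differences between LPS states were divided by an SE that combines both SE in quadrature, and the two-sided normal p was adjusted over the 12994 genes whose mean normalized count was 10 or more; they were tested on simulated data. Intervals are 95% normal intervals. Named genes are all members, Kat8, other desaturases, cell-type markers and up to 4 genes with the smallest p per list and comparison. Srebf1, Srebf2, Nr1h3, Insig1, Fasn, Acaca and Acly were named whatever their p. Also named are neighbours within 200 kb of a Fads gene and the 5 nearest in pattern to Fads1. Outside this rule, Cdc20 is named for its overlap with Elovl1, and Ptgs2 to stand beside Ptges. Positions are from GENCODE M21, matched by gene ID for all 9 members, and promoters from RefSeq, matched by symbol for 6. Alternatives were centring, other adjustment sets, a threshold of 0.01, a minimum change, a null of small changes and an empirical null. Tools were Python 3.11.15, pandas 2.3.3, NumPy 2.4.6 and SciPy 1.17.1.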

Additional observations from a re-analysis of the deposited data

Results flagged for a closer look

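The 30 genes below had a knockdown effect that differed between LPS states, with an adjusted p of at most 0.0385 in the test of the difference. Each value is the log2 fold change after LPS minus that without it. The genes were drawn from pathway genes and Fads neighbours picked by the naming rule, mostly for a small p in either comparison. Of all genes tested, 30.6% passed, which is not a like-for-like background for genes picked this way. Other pathway genes among the 39 with such a difference, Ptgs2 included, fell outside the rule and are not listed. The members were not tested for this, since their LPS values took part in the choice of genes.

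Among other desaturases, Fads6 had a difference of -0.70 and Degs1 of 0.21. In the elongation cycle Hacd1 had 0.62, and among cytochrome b5 and reductase genes Cyb5r1 had -0.44. The acyl-CoA synthetases Acsl1, Acsl4 and Acsl5 had 0.27, 0.18 and 0.17, and Acsl3 had -0.42. In substrate supply Acss2 had -0.87 and Mlycd, malonyl-CoA decarboxylase, -0.41. Of the regulators, Scap had 0.44 and Insig1 0.36, while Nr1h3 had -0.42, Rxra -0.73 and Ppard -0.74. In phospholipid remodelling Mboat1 had 1.25 and Agpat3 -0.27. Of the genes of fatty acid release and eicosanoid synthesis, Ptges had -0.83, Pla2g15 -0.65 and Pla2g6 -0.54, while Ptges3 had 0.41, Alox5ap 0.28 and Hpgds 0.23. Acot8, a peroxisomal thioesterase, had -0.40, and the lipid storage genes Gpam and Lipe had -0.35 and -0.38. Near the Fads cluster, Incenp had -0.33, Rab3il1 -0.80, Dagla -0.60 and Myrf 1.46.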

How the results depend on the processing

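Of the 9 members, the 5 called in unstimulated cells, all lower, became 3 with a minimum log2 change of 1, 3 against a null of changes up to 0.25 and 1 under an empirical null; Fads1, Fads2 and Elovl6 remained under the first pair and Fads1 under the last. Over all 14264 genes these settings called 484, 1492 and 783 without LPS, of which 366, 897 and 562 were lower, and 693, 2441 and 739 after it. After LPS, the 6 called members became 1, 3 and 1 under these settings, and the 4 called lower became 1 with the minimum change and 1 under the empirical null. With adjustment over genes averaging 50 or more normalized counts, 1 of the 2 called higher remained, as Elovl7 was below that limit and not tested. At a threshold of 0.01 the 2 called higher became 1, and under the settings above 0, 0 and 0. Pathway genes called went from 58 to 5, 22 and 9 without LPS and from 60 to 4, 19 and 7 after it. With fold changes divided by their SE, 1 of the 5 genes nearest to Fads1 was kept. No called member changed sign under these settings, and the count of 39 pathway genes with a difference between states stayed within 1.5 times under centring, a correlation of errors of 0.3 and a minimum mean of 50. No paired analysis was possible because the tables hold no values per library, and leaving out a library was not possible for the same reason. Depth limits Scd1 and Elovl7 most, with mean normalized counts of 20.3 and 43.4.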
